A study of Homo sapiens with 18 samples.

Results

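The regions described here are exon peaks of N6-methyladenosine (m6A): stretches of RNA enriched by an antibody against the methyl mark, placed by their annotation in an exon rather than in a UTR, and listed under a gene whose symbol is not that of a long noncoding RNA (lncRNA). They were taken from the 2 tables of differential peaks that the authors deposited, as the entries annotated to an exon whose gene, looked up in the expression table, did not have a name of the LINC, antisense, divergent transcript, SNHG or clone type and was not MALAT1 or NEAT1. This kept 3172 of 14903 peaks (21.3%), in 2407 genes, in the table for black phosphorus, and 2421 of 12891 (18.8%), in 1956 genes, in the table for titanium dioxide. Together these are 5593 of 27794 entries, in 3210 genes. Most other entries lay in a 3' UTR (12815) or a 5' UTR (7140).

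The cells carry the label A549, a human lung adenocarcinoma line. One group was left untreated, one was given black phosphorus quantum dots (BPQD) at 10 mg/L, and one titanium dioxide (TiO2) at 100 mg/L, both for 24 h. Each group had 3 input RNA libraries and 3 libraries of m6A-enriched RNA, 18 in all, and the doses of the materials differ. The labels do not say whether replicates were separate cultures. A p-value for RNA thus reflects how far these libraries vary, which can be technical variation alone. What variation the deposited p-values of peaks reflect is not known. Expression came as FPKM in the 9 input libraries with no read counts, so depth is unknown. For m6A the tables hold 1 fold change per peak and none per library, so the m6A values below carry no replicate error.

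The label was set against marker genes. The epithelial keratins KRT18, KRT7 and KRT8 had at least 403, 206 and 218 FPKM in every input library. Markers of other cell types were mixed. PTPRC and CD3E of leukocytes, COL1A2 of fibroblasts, and VWF and PECAM1 of endothelium reached at most 0.0346, 0.0456, 0.104, 0.0948 and 0.186 FPKM. The macrophage gene CD68 had 10.8 to 22.9 FPKM, the fibroblast genes COL1A1, PDGFRB and DCN 1.52 to 3.39, 1.61 to 3.29 and 0.417 to 1.04, and the endothelial gene CDH5 1.14 to 3.73. By limma, CD68 was higher under TiO2 (log2 fold change 0.73, adjusted p = 0.000946), CDH5 was lower under BPQD (-0.91, adjusted p = 0.00170), and COL1A1 and PDGFRB were lower under both. Their part in the results was not tested. CDKN2A and CDKN2B, which are deleted in A549, had 19.3 to 27.4 and 7.12 to 10.9 FPKM, and AKR1B10, which A549 expresses strongly, at most 0.998. These levels go against the label, and the cells are called by it without a claim on their identity. In bulk RNA, fewer cells of a type and less RNA per cell cannot be told apart.

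m6A is placed on nuclear RNA by a complex around METTL3 and METTL14, with WTAP, VIRMA, ZC3H13 and CBLL1 as partners. FTO and ALKBH5 can remove it, and YTH-domain and other proteins read it and affect splicing, export, decay and translation. The mark sits in a short sequence context known as DRACH (A, G or T, then A or G, then AC, then A, C or T) and is best known for its density around stop codons and in long internal exons.

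The transcribed start is the stretch of these peaks for which reference sequence was at hand. It is shown because peaks at a first exon can include the bases next to the cap, though few did. First exons of the listed gene held 403 peaks under BPQD and 319 under TiO2. Of exon peaks lying in an exon of their own gene, 12 of the BPQD table and 13 of the TiO2 table covered the first 50 transcribed bases of the RefSeq start (GRCh38.p14), and 9 and 5 of those windows held DRACH on the transcribed strand. Among all 35116 RefSeq start windows of the same length 49.6% held it, and a match is a description of letters, not a methylated site. The 4 runs of 30 bases printed here, 5' to 3' with the motif in capitals, were picked after their values were seen.
LOX, chr5:122077185-122077214, minus strand: ggaatccagtgcAAACCgcgcgtctggccc
GNAS, chr20:58888418-58888447, plus strand: ttgaaaatttagTAACCctgctcctaatcc
ELK3, chr12:96255518-96255547, plus strand: catatgaggaaagctcaGGACAcatcaaag
FENDRR, chr16:86508831-86508860, minus strand: agcAGACAgcgcgggctgggagcgccggca
The LOX peak, in the gene of the collagen-crosslinking enzyme lysyl oxidase, had a log2 fold change of 1.23 (p = 0.00166) in the authors' deposited table for BPQD. The GNAS peak, in the gene of a stimulatory G protein subunit, had 0.45 (p = 0.0132) under BPQD and 0.58 (p = 0.00251) under TiO2 in the authors' deposited tables. The ELK3 peak had -0.20 (p = 6.76e-05) in the authors' deposited table for TiO2. FENDRR is a noncoding gene that the name filter did not remove. Its peak had 0.18 (p = 0.00275) under TiO2 and -0.41 (p = 0.0933) under BPQD in the authors' deposited tables.

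Under BPQD, exon peaks were called higher more often than lower. At a deposited p under 0.05, 1118 exon peaks were higher (35.2%) and 672 lower (21.2%), with a median log2 fold change of 0.38 in the authors' deposited table. Over all 14903 peaks 37.7% were higher and 27.1% lower, and the median was 0.16. Of the peaks that were called, 29.1% had an absolute log2 fold change under 0.3 and 25.9% one of at least 1. Peaks of the 5' UTR went the other way, with 1121 of 3734 higher and 1338 lower and a median of -0.17 in the authors' deposited table.

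Under TiO2 the exon peaks called higher numbered 759 (31.4%) and those called lower 483 (20.0%). The median log2 fold change was 0.15 in the authors' deposited table, the same as over all 12891 peaks, of which 40.3% were higher and 23.8% lower. Exon peaks were thus called less often than peaks at large in this table. Of the called ones, 39.4% had an absolute log2 fold change under 0.3 and 17.5% one of at least 1. No p above 0.603 stands in the BPQD table and none above 0.678 in the TiO2 table, and the sources used here do not say how p was computed.

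**Figure D1:**
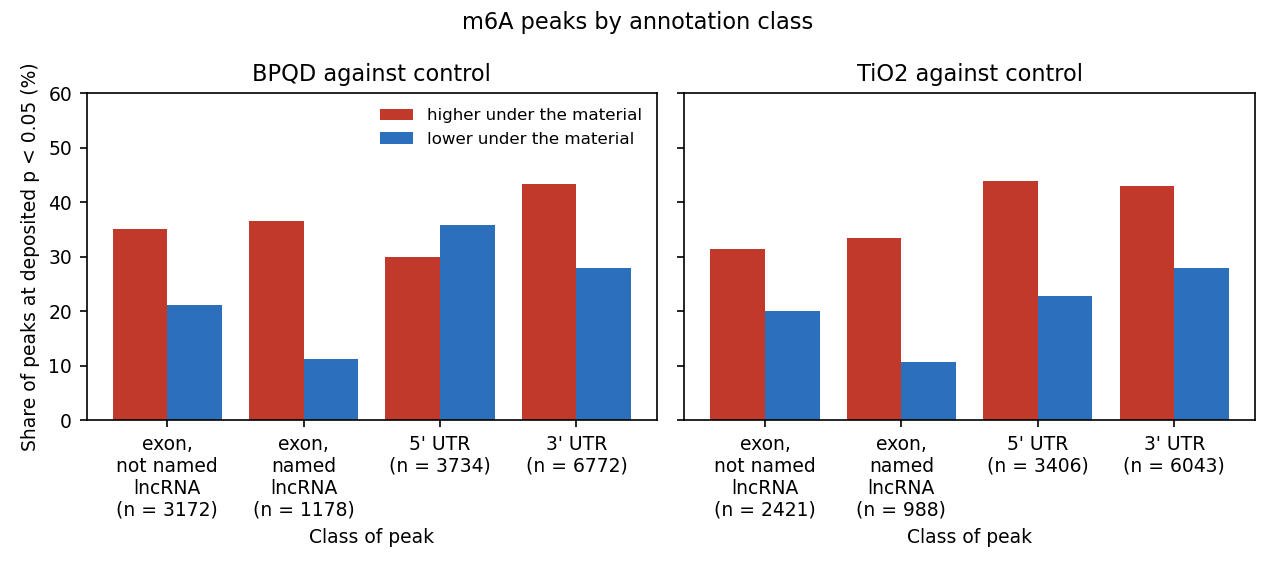
Share of m6A peaks (%) called higher (red) or lower (blue) at a deposited p under 0.05, by annotation class, for each material against control; n is the number of peaks. Exon peaks of genes not named lncRNA stand at 35.2% higher and 21.2% lower under BPQD and at 31.4% and 20.0% under TiO2, and the 5' UTR under BPQD is the class of the 4 with more peaks lower than higher.

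Position within the transcript separated the exon peaks. Internal exons held 1293 of the BPQD peaks, with a median log2 fold change of 0.11 in the authors' deposited table, 34.2% of them higher and 33.0% lower. Annotated transcripts with a single exon held 605, with a median of 1.09 in the authors' deposited table, 35.7% higher and 9.26% lower. Only 277 of these lay in an exon of the listed gene. Those had a median of 0.84 in the authors' deposited table, with 36.1% higher and 13.4% lower. First exons (502 peaks) had 35.1% higher and 19.9% lower, and last exons (772) 36.8% and 11.5%. The share that was higher was thus alike in the 4 positions, and the share that was lower was not. Under TiO2 the internal exons again had the most lower peaks, 27.3% of 1108, against 12.7% of 324 in single, 16.5% of 395 in first and 12.5% of 594 in last exons. Of internal exon peaks there, 34.8% were higher, against 27.5%, 27.8% and 29.3% at the other positions.

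Width moved with position. Up to 150 bases, 10.0% of the BPQD peaks were higher and 15.2% lower, and over 2000 bases 47.8% and 27.1%. In the TiO2 table the corresponding shares were 4.46% and 8.92%, and 55.0% and 21.6%. Widths ran from 56 to 200431 bases under BPQD and from 58 to 262552 under TiO2, so entries can include introns. The part of width in the pattern by position was not tested. Among genes of at least 1 FPKM the contrast by position stood, with 39.5% of internal and 12.1% of single exon peaks lower under BPQD.

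**Figure D2:**
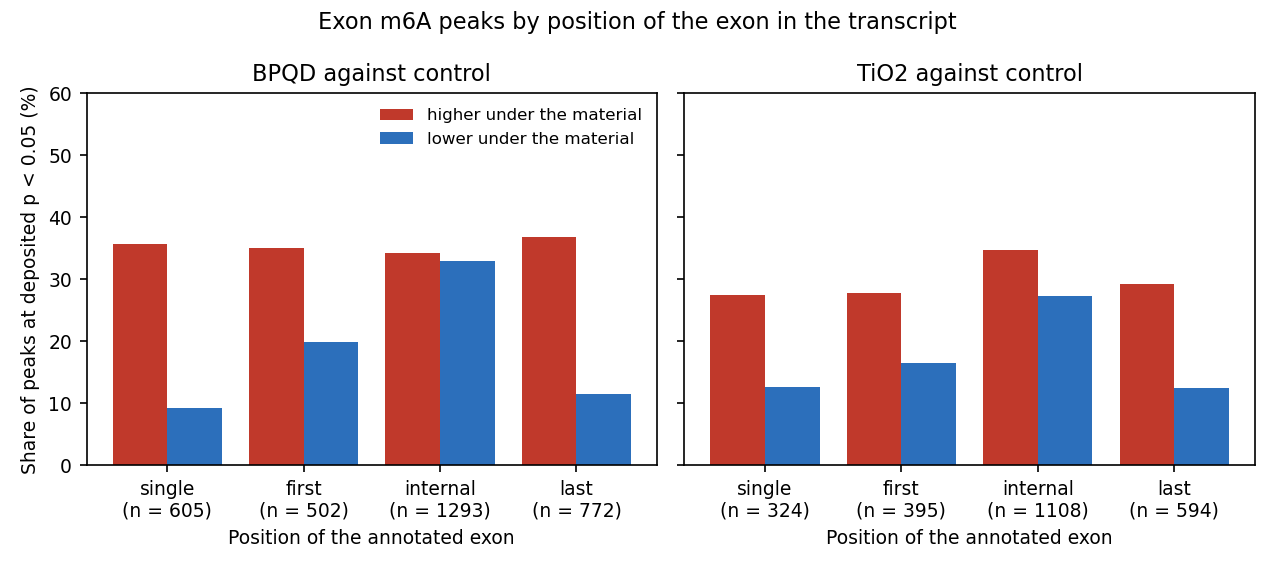
Share of exon peaks (%) called higher (red) or lower (blue) at a deposited p under 0.05, by position of the annotated exon, for each material against control; n is the number of peaks. The red bars stay between 27.5% and 36.8%, and the blue bars are tallest in internal exons, at 33.0% under BPQD and 27.3% under TiO2.

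The abundance of the gene went with both size and direction of the fold change. In the authors' deposited table for BPQD the median log2 fold change was 1.37 for peaks of genes under 0.1 FPKM and -0.18 for those over 30 FPKM. The share of peaks that were lower went from 7.65% to 52.3% across the same range. For TiO2 the lower share went from 6.77% to 47.4%, while the median log2 fold change in the authors' deposited table was -0.35 in the lowest bin, 0.33 from 0.1 to 1 FPKM and -0.12 over 30 FPKM. All other peaks had the same slope in the lower share, from 13.2% to 62.8% under BPQD and from 16.3% to 54.8% under TiO2, so it was not particular to exons. Among called exon peaks the median absolute log2 fold change was 0.28 over 30 FPKM and 1.10 under 1 FPKM for BPQD, and 0.19 and 0.86 for TiO2, from the authors' deposited tables.

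**Figure D3:**
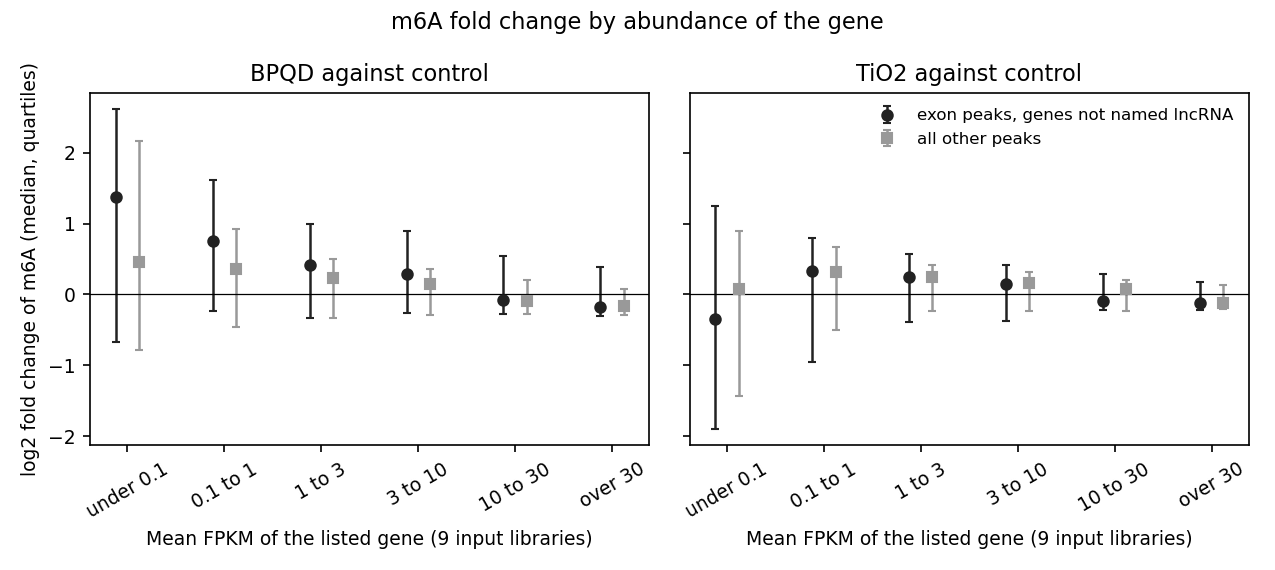
Median log2 fold change of m6A in the authors' deposited tables, with bars from the first to the third quartile, by mean FPKM of the listed gene over 9 input libraries, for exon peaks of genes not named lncRNA (black circles) and all other peaks (grey squares). Exon peaks run from 1.37 down to -0.18 under BPQD; under TiO2 they start at -0.35, reach 0.33 in the next bin and end at -0.12.

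The gene listed for a peak was not always the gene of its exon. For 806 of 3172 BPQD peaks and 522 of 2421 TiO2 peaks the annotation named an exon of another gene. That other gene itself had a lncRNA name in 513 and 356 entries, so the name filter on the listed gene left many peaks in lncRNA exons. These 513 had a median log2 fold change of 0.88 in the authors' deposited table, with 184 higher and 53 lower. Without them, 934 of 2659 BPQD peaks were higher (35.1%) and 619 lower (23.3%). By RefSeq type the listed gene was protein coding for 2471 and 1913 peaks, a pseudogene for 384 and 273, and an lncRNA for 114 and 82. The tables have no strand, so reads of overlapping genes on opposite strands cannot be told apart.

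Most genes had 1 exon peak: 78.8% under BPQD and 82.4% under TiO2. Where a gene had at least 2 called exon peaks, they need not go the same way. Of 256 such genes in the BPQD table, 135 had all of them higher, 52 all lower and 69 some of each, and among 134 under TiO2 these numbered 67, 27 and 40. The genes named in this paragraph were picked after their values were seen. EPPK1 and TTN had the most exon peaks under BPQD, 11 each, with 2 higher and 3 lower, and with 6 higher and 1 lower. MUC16, a cell-surface mucin with very long exons, had 9 exon peaks in each table, of which 2 were higher and 6 lower under BPQD and 0 and 5 under TiO2. DST, a cytoskeletal linker, had 4 of 6 higher and 2 lower under BPQD. JPX, a noncoding RNA gene of the X-inactivation centre, had 9 and 12 exon peaks, of which 4 were higher and 0 lower in each table. AHNAK, a giant scaffold protein, had 5 exon peaks under BPQD, all lower, with log2 fold changes between -0.16 and -0.03 in the authors' deposited table.

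Peaks listed in both tables at overlapping positions of the same gene numbered 1168 of the BPQD exon peaks (36.8%) and 1162 of the TiO2 exon peaks (48.0%). Both tables use the same control libraries, so nothing is read from this overlap and the values are set side by side. DNTTIP2, a nucleolar protein of rRNA processing, had a peak at chr1:93876349-93877487 in exon 2 of 7, with log2 fold changes of 0.43 under BPQD and 0.37 under TiO2 in the authors' deposited tables. RANBP2, a nucleoporin and SUMO ligase, had a peak in exon 20 of 29 (chr2:108764593-108771745) with 0.25 and 0.34 in the authors' deposited tables. USP1, a deubiquitinase of DNA repair, had 0.43 and 0.52 in exon 5 of 5 (chr1:62443275-62445262), and KNL1, a kinetochore scaffold, 0.41 and 0.47 in exon 11 of 27, from the authors' deposited tables. These 4 peaks were called higher for each material.

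A second set was lower for each material. NCL, the nucleolar protein nucleolin, had a peak in exon 3 of 14 (chr2:231460506-231461821 in the BPQD table) with -0.28 under BPQD (p = 1.00e-174) and -0.13 under TiO2 (p = 2.00e-40) in the authors' deposited tables. HDGF, a chromatin-binding growth factor, had -0.29 and -0.15 in exon 4 of 6 in the authors' deposited tables. POLR2A, the catalytic subunit of RNA polymerase II, had -0.20 and -0.18 in exon 28 of 29 (chr17:7512902-7514167) in the authors' deposited tables. TOP2A, the topoisomerase of mitotic chromosomes, had -0.43 and -0.28 in exon 28 of 35 in the authors' deposited tables. The peak listed for SSRP1, a histone chaperone subunit, had -0.39 and -0.29 in the authors' deposited tables, and its annotated exon belongs to the clone-named gene AP000781. These p-values are very small beside fold changes that are small.

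A minority of peaks were listed as higher for one material and lower for the other. Of 682 overlapping pairs called in both tables, 401 were higher in both and 237 lower in both. Another 17 were higher under BPQD and lower under TiO2, and 27 the reverse. The same pairs were not counted over all peaks, so these counts are not read as particular to exon peaks. The opposite peaks named here were picked after their values were seen. The difference between materials was not tested, since the tables hold no direct comparison. TUBB, a beta-tubulin, had 0.15 under BPQD and -0.15 under TiO2 in exon 4 of 4 in the authors' deposited tables. SRRM2, a scaffold of nuclear speckles, had 0.38 and -0.21, and SON, another speckle protein, 0.16 and -0.21, in the authors' deposited tables. BAZ1A, a chromatin remodelling subunit, had 0.18 and -0.17, and NCOA3, a nuclear receptor coactivator, 0.18 and -0.20, in the authors' deposited tables. An AHNAK peak had -0.16 and 0.07 in the authors' deposited tables. PDZD2, a PDZ-domain protein, had 1.90 in the authors' deposited table for BPQD and -1.16 (p = 0.0437) in the one for TiO2, in peaks that overlap but differ in extent. The SON peaks differ in extent too, at chr21:33552148-33554992 under BPQD and chr21:33552148-33552567 under TiO2.

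**Figure D4:**
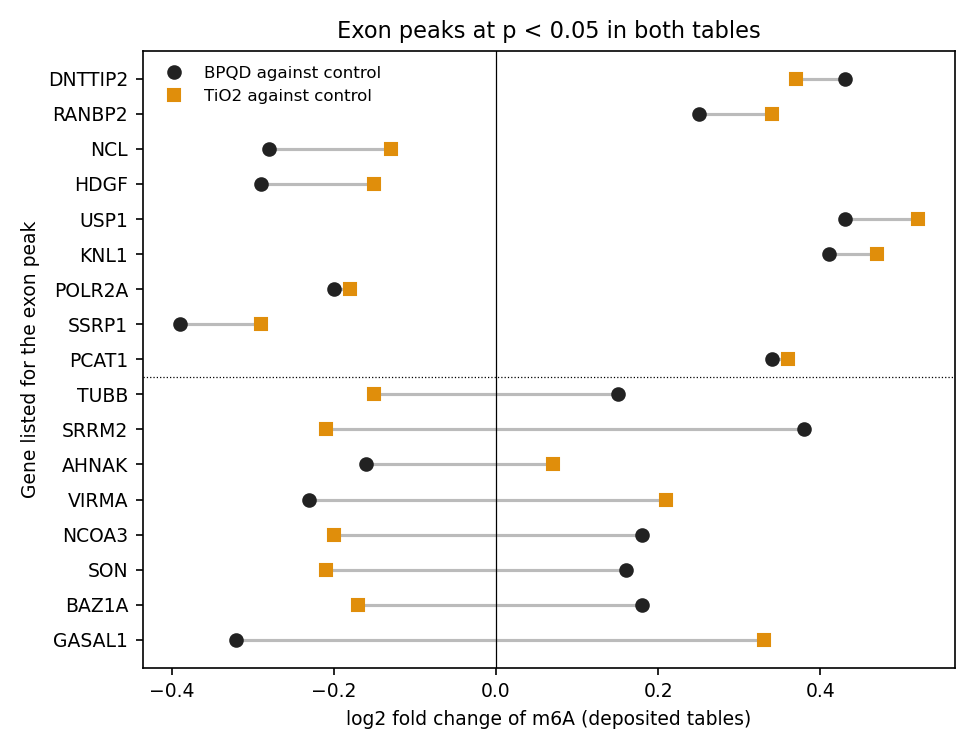
Log2 fold change of m6A in the authors' deposited tables for overlapping exon peaks at p under 0.05 in both, BPQD (black circles) and TiO2 (orange squares) against the same control libraries. Above the dotted line are the peaks with the smallest p apart from TUBB, among them DNTTIP2 (0.43 and 0.37) and NCL (-0.28 and -0.13); below it are peaks listed in opposite directions, among them TUBB (0.15 and -0.15), which were chosen after their values were seen.

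The peaks of smallest p in each table, taken separately, included larger changes, and several have an overlapping peak in the other table. Under BPQD the peak listed for BTBD2, whose annotated exon is in AC005306, had 1.81, and that of PCID2, an mRNA export factor, 1.26, in the authors' deposited table. The pseudogene PHKA1P1 had 2.25 and CAND1, an exchange factor of cullin ligases, 0.44, in the authors' deposited table for BPQD. Lower peaks were those of EIF3C (-0.72), HMGN2 (-0.37), CALM2 (-0.36), TPM2 (-0.34) and MORF4L2 (-0.25) in the authors' deposited table for BPQD, genes of a translation initiation subunit, a nucleosome-binding protein, calmodulin, a tropomyosin and a chromatin acetylation subunit. Under TiO2 the peak listed for the pseudogene SHLD2P1, in an exon of LINC02637, had 2.66, and that of BOLA2B, an iron-sulfur cluster factor, -4.56, in the authors' deposited table. The phosphodiesterase gene PDE10A had 0.33, the phosphatase gene PTPN12 0.39 and the mitotic gene CENPF 0.17, in the authors' deposited table for TiO2. PTMAP2, a prothymosin pseudogene, had -1.23 and RPS24, a ribosomal protein gene, -0.13, in the authors' deposited table for TiO2. BOLA2B, EIF3C, HMGN2, CALM2, RPS24, TUBB and the pseudogenes have near-identical copies, so reads may be split or shared between copies and their values are uncertain. The overlapping TiO2 peaks of PCID2, CAND1, EIF3C, CALM2 and HMGN2 had 0.49, 0.17, -0.37, -0.12 and -0.07, and the overlapping BPQD peaks of PTPN12 and PTMAP2 0.26 and -0.82, each called, in the authors' deposited tables. The TiO2 peak of CENPF overlaps 2 BPQD peaks, of 0.07 and -0.20, each called, in the authors' deposited table. H19, a lncRNA gene whose name the filter let through, had 0.09 in the authors' deposited table for TiO2.

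RNA of the genes listed for these peaks was tested in the input libraries with limma on log2(FPKM + 1), on which scale changes of low genes are understated. Of 2407 genes with an exon peak in the BPQD table, 1641 had a mean of at least 1 FPKM and were tested, and 389 were higher (23.7%) and 415 lower (25.3%) at adjusted p under 0.05. Over all 12224 tested genes 20.6% were higher and 23.4% lower. When FPKM was rescaled to TPM the split of these genes was 485 higher and 324 lower. For TiO2, 1342 of 1956 genes were tested, with 189 higher (14.1%) and 377 lower (28.1%), against 17.3% and 20.5% over all genes. Between the materials 2126 of 3210 genes were tested, with 548 higher under BPQD (25.8%) and 358 lower (16.8%), against 19.0% and 18.6% over all genes. Log2 fold changes below are ± SE with n = 3 libraries per group, and adjusted p is limma's with Benjamini-Hochberg correction.

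NCL had 104, 103 and 106 FPKM in the control libraries, 156, 147 and 152 under BPQD and 125, 130 and 123 under TiO2. Its RNA was higher in every exposed library while its exon peak was lower, and the rise was 0.53 ± 0.03 under BPQD (adjusted p = 1.58e-05) and 0.27 ± 0.03 under TiO2 (adjusted p = 0.000447). DNTTIP2 had 7.97, 7.66 and 8.17 FPKM in control, 12.7, 11.9 and 12.9 under BPQD and 11.3, 11.5 and 11.2 under TiO2. Here RNA and peak were both higher, with log2 fold changes in RNA of 0.59 ± 0.04 (adjusted p = 2.15e-05) and 0.47 ± 0.04 (adjusted p = 8.03e-05). RANBP2 had 21.8, 21.6 and 21.3 FPKM in control, 29.3, 28.5 and 28.1 under BPQD and 21.3, 22.9 and 21.8 under TiO2. Its RNA was higher under BPQD without overlap (0.39 ± 0.03, adjusted p = 5.84e-05), and the TiO2 libraries overlapped the controls (0.03 ± 0.03, adjusted p = 0.560) although the peak was higher there too.

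POLR2A had 50.5, 50.9 and 53.1 FPKM in control, 44.4, 44.9 and 46.1 under BPQD and 39.7, 38.3 and 37.9 under TiO2, so RNA and peak were both lower. The fall in RNA was -0.19 ± 0.03 (adjusted p = 0.00153) and -0.40 ± 0.03 (adjusted p = 5.83e-05). HDGF had 241, 242 and 247 FPKM in control, 220, 213 and 218 under BPQD and 222, 238 and 220 under TiO2. All exposed libraries lay below the controls, by -0.17 ± 0.03 (adjusted p = 0.00384) and -0.10 ± 0.03 (adjusted p = 0.0334), but after quantile normalization the BPQD value was 0.00 (adjusted p = 0.949). The TiO2 call was lost in 10 alternatives, among them the block, TPM and quantile normalization (-0.02, adjusted p = 0.667). KNL1 had 6.29, 6.38 and 6.40 FPKM in control, 6.42, 6.03 and 6.30 under BPQD and 5.83, 5.79 and 5.61 under TiO2. The BPQD libraries overlapped the controls (-0.02 ± 0.03, adjusted p = 0.606) and the TiO2 ones lay below (-0.13 ± 0.03, adjusted p = 0.0142). TUBB had 970 to 977 FPKM in control, 971 to 980 under BPQD and 925 to 942 under TiO2. Its TiO2 value of -0.06 ± 0.01 (adjusted p = 0.00944) became 0.14 after quantile normalization, so it has no settled direction.

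**Figure D5:**
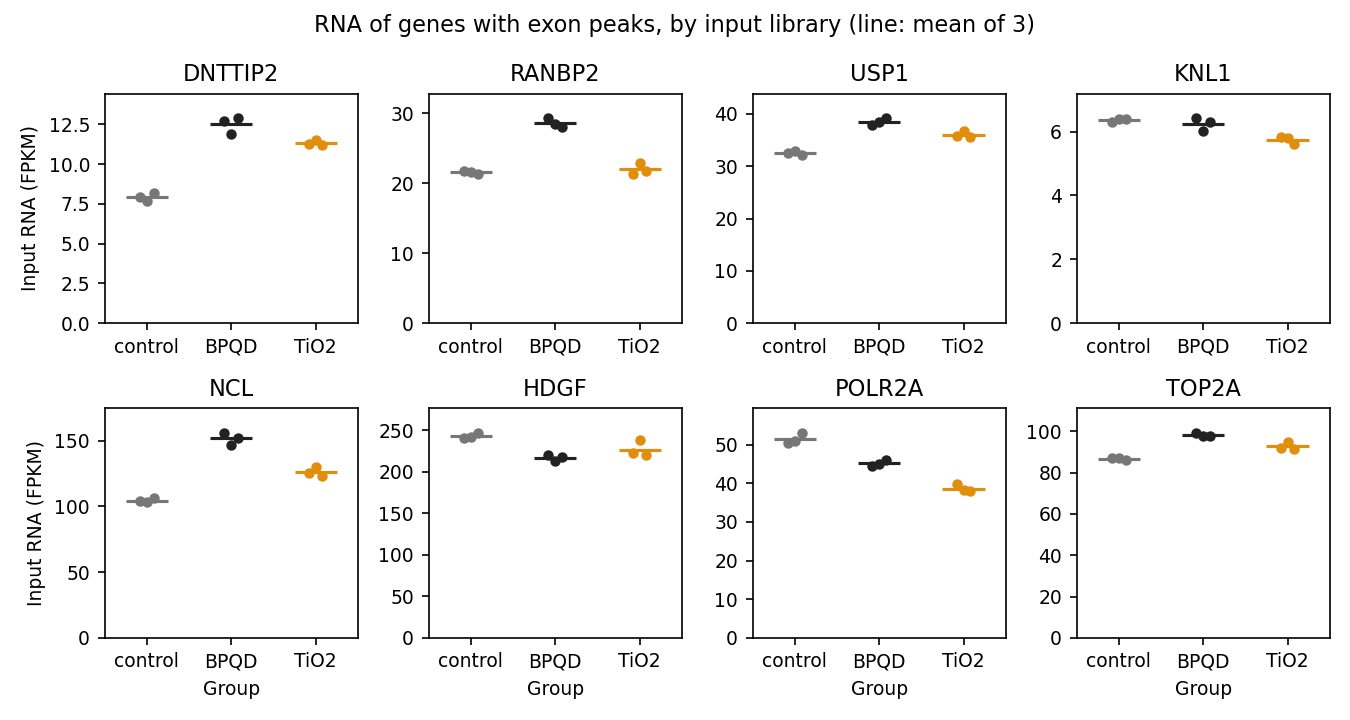
Input RNA (FPKM) of 8 genes with exon peaks, by group; points are the 3 libraries of a group and lines their mean. NCL and DNTTIP2 lie above the controls in every exposed library, RANBP2 does so under BPQD, and POLR2A and HDGF lie below the controls under both materials.

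Other named genes had RNA changes of their own. PDE10A had 3.52 to 3.72 FPKM in control, 7.51 to 8.12 under BPQD and 2.92 to 2.94 under TiO2, and its change under BPQD was 0.94 ± 0.04 (adjusted p = 3.27e-06). H19 had 637 to 646 FPKM in control, 305 to 387 under BPQD and 434 to 439 under TiO2, a fall of -0.85 ± 0.08 (adjusted p = 0.000160) and -0.55 ± 0.08 (adjusted p = 0.00157). AHNAK had 70.0 to 71.2 FPKM in control, 72.4 to 72.9 under BPQD, and 2.65, 62.9 and 62.5 under TiO2. The low TiO2 library widened the error of all AHNAK contrasts (-1.54 ± 1.0 under TiO2, adjusted p = 0.268), and without it the TiO2 value was -0.17 (adjusted p = 0.00113). Of 37 tested genes among those named for their peaks or their role in m6A, 19 were higher, 7 lower and 11 not called under BPQD, and 9, 10 and 18 under TiO2. Over all tested genes the shares are 20.6% higher and 23.4% lower under BPQD, and 17.3% and 20.5% under TiO2, and nothing is read from the counts, since the genes were picked by their peaks.

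Across genes, the change of the peak and that of the RNA went together little. With 1 peak per gene, that of smallest p, Pearson's r was 0.02 and Spearman's rho 0.04 over 1641 genes under BPQD, and 0.01 and 0.00 over 1342 genes under TiO2. Genes are not independent replicates, and the input libraries enter both measures, so no p is given. Among 569 genes with both measures called under BPQD, 189 had peak and RNA higher, 138 both lower, 121 a higher peak with lower RNA and 121 the reverse. Under TiO2, of 371 such genes, 58 had both higher, 115 both lower, 137 a higher peak with lower RNA and 61 the reverse.

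Some genes of the m6A machinery were listed for exon peaks. Among 12 writers and partners, 3 had an exon peak in each table, and neither of the 2 erasers had one. Over all 12224 genes tested for RNA, 1641 had an exon peak under BPQD and 1342 under TiO2. CBLL1, a ubiquitin ligase of the writer complex, had 0.66 (p = 0.000380) under BPQD and 0.85 (p = 2.82e-06) under TiO2 in the authors' deposited tables. Most of this peak (chr7:107742817-107744069) lies upstream of the gene start given with the FPKM values, 107743949 on the plus strand. VIRMA, a scaffold subunit of the complex, had 2 exon peaks under BPQD, of 0.28 and -0.23, and 1 of 0.21 under TiO2 that overlaps both, in the authors' deposited tables. ZC3H13, a zinc finger partner, had 0.08 (p = 0.00132) in the authors' deposited table for TiO2. PCIF1, which methylates the cap-adjacent adenosine, had 0.33 with p = 0.0933 in the authors' deposited table for BPQD and was not called.

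RNA of VIRMA was 7.54 to 8.20 FPKM in control, 9.28 to 10.2 under BPQD and 7.87 to 8.52 under TiO2, higher under BPQD by 0.26 ± 0.05 (adjusted p = 0.00356). PCIF1 RNA was 13.1 to 13.9 FPKM in control, 8.81 to 9.57 under BPQD and 10.8 to 11.4 under TiO2, lower under BPQD by -0.50 ± 0.04 (adjusted p = 5.11e-05). CBLL1 RNA ran from 1.28 to 2.29 FPKM in control and from 3.0 to 4.15 under BPQD without overlap, but did not pass (0.83 ± 0.35, adjusted p = 0.0875). Among 15 readers, 4 had exon peaks under BPQD and 3 under TiO2. For the reader RBMX, the peak of smallest p under each material lay in an exon of RAB28P5 and was not called. EIF3A, a translation initiation subunit that binds m6A, had -0.36 under BPQD and -0.19 under TiO2 in exon 12 of 22 in the authors' deposited tables. YTHDC1, the nuclear reader, had -0.18 (p = 4.68e-05) in the authors' deposited table for BPQD. IGF2BP3, which stabilises bound mRNA, had a peak of 1.09 under BPQD that overlaps one of 0.66 (p = 0.00110) under TiO2 in the authors' deposited tables. Another IGF2BP3 peak had -0.67 under TiO2 and overlaps one of -0.41 (p = 0.0105) under BPQD in the authors' deposited tables, so the gene has a higher and a lower peak for each material. The RNA of EIF3A rose by 0.42 ± 0.02 under BPQD (adjusted p = 1.34e-05), and that of YTHDC1 by 0.60 ± 0.08 (adjusted p = 0.000618).

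The lists of chromatin modifiers, mitotic genes and DNA repair genes hold 53, 40 and 36 genes. Each is read beside the shares over all peaks given above. Chromatin modifiers had 38 exon peaks under BPQD in 24 genes, 22 higher and 9 lower, and 30 under TiO2 in 22 genes, 12 higher and 12 lower. Among these, the histone methyltransferase genes SETD2 and NSD2 had 0.47 and 0.25 in the authors' deposited table for BPQD. The overlapping TiO2 peaks had 0.42, called higher, and -0.07, not called, in the authors' deposited table. NSD1, another methyltransferase, had 0.34 and KMT2B 0.33 in the authors' deposited table for TiO2. Their overlapping BPQD peaks had 0.15 and 0.17, each called, in the authors' deposited table. Mitotic genes had 10 higher and 6 lower of 18 under BPQD and 7 and 2 of 11 under TiO2. ASPM, a spindle pole protein, had 0.46 in the authors' deposited table for BPQD, and the kinesin KIF20B 0.32 in the authors' deposited table for TiO2. The overlapping ASPM peak under TiO2 had 0.11, not called, and the overlapping KIF20B peak under BPQD 0.19, called, in the authors' deposited tables. DNA repair genes had 10 higher and 1 lower of 16 under BPQD and 8 and 2 of 13 under TiO2. BLM, a helicase, had 0.34 and 0.42, RIF1 0.27 and 0.16 and TP53BP1 0.21 and 0.18 under BPQD and TiO2 in the authors' deposited tables, the latter 2 being factors that shield DNA ends. Of the 9 repair genes with an exon peak and tested RNA under BPQD, 7 were higher and 1 lower in RNA, and of 8 under TiO2, 0 and 2. Over all tested genes 20.6% were higher and 23.4% lower under BPQD, and 17.3% and 20.5% under TiO2.

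Matrix genes held more lower than higher peaks under both materials, and scaffold genes did so under BPQD. Plakins, spectrins and other large scaffold proteins had 20 higher and 27 lower of 63 exon peaks under BPQD and 16 and 12 of 42 under TiO2. MYH9, a nonmuscle myosin, had -0.33 under BPQD and -0.24 under TiO2, in peaks of different exons, and the Golgi protein GOLGA4 0.23 and 0.34, in the authors' deposited tables. Extracellular matrix genes and their receptors had 1 higher and 9 lower of 16 under BPQD and 5 and 7 of 12 under TiO2. The lower ones are 56.2% and 58.3% of matrix peaks and 42.9% and 28.6% of scaffold peaks. Over all peaks 27.1% and 23.8% were lower. Over all exon peaks described here 21.2% and 20.0% were lower under BPQD and TiO2. Where the gene had 10 to 30 FPKM these shares were 41.8% and 33.2%, and over 30 FPKM 52.3% and 47.4%. The part of gene abundance in the shares of these 2 lists was not tested. COL7A1, the collagen of anchoring fibrils, had -0.36 and -0.24, and LAMB2, a laminin chain, -0.19 in each, in the authors' deposited tables. FN1, fibronectin, was the matrix gene with a higher peak under BPQD, at 2.10 in exon 41 of 45 in the authors' deposited table. COL7A1 RNA was 26.1 to 26.8 FPKM in control and 26.0 to 26.9 under BPQD, with overlap, and 20.9 to 21.5 under TiO2, lower by -0.30 ± 0.02 (adjusted p = 9.50e-05).

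The list with the most exon peaks had few that were lower. C2H2 zinc finger genes, a large family of repressors that often act on transposable elements, had 33 higher and 10 lower of 83 exon peaks under BPQD and 30 and 8 of 84 under TiO2. The lower ones are 12% and 9.52%, against 27.1% and 23.8% over all peaks, and the higher ones 39.8% and 35.7%, against 37.7% and 40.3%. Over all exon peaks described here 21.2% and 20.0% were lower, and 10.6% and 11.7% where the gene had 0.1 to 1 FPKM. The part of gene abundance in the low share was not tested. ZNF638, an RNA-binding zinc finger protein, had 0.20 under BPQD and 0.25 under TiO2 in the authors' deposited tables. Genes of sterol synthesis and lipoprotein uptake had 4 higher and 1 lower of 10 under BPQD and 0 and 2 of 3 under TiO2. The exons of 3 of those higher peaks, listed for DHCR7, FDFT1 and IDI1, lie in other genes. MVK, mevalonate kinase, had -2.33 (p = 0.0324) and -2.10 (p = 0.0302) under BPQD and TiO2 in the authors' deposited tables. HIF1A, the hypoxia factor, had 0.29 in exon 12 of 15 in the authors' deposited table for BPQD. Genes of mRNA decay had 2 higher and 2 lower of 8 under BPQD and 2 and 0 of 5 under TiO2.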

How the data were processed

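Per the file headers, the authors deposited FPKM of 36576 genes in the 9 input libraries. For each peak and material the authors deposited a log2 fold change, a p-value, and an FDR on the log10 scale that is handled as a score. For the peak caller and replicate pooling, nothing is given in the sources used here. The submitters' processing notes list HISAT2 and StringTie 1.3.0 without roles and mm10, a mouse build. Gene IDs in the tables are human. All 3020 matched genes of 3210 lay on the chromosome of GRCh38.p14, 92.4% starting within 10000 bases, so coordinates are read as GRCh38. Another 12 FPKM columns, in the peak tables, were left out.

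Libraries were grouped by title. RNA was tested two-sided with limma 3.58.1 (R 4.3.3) on log2(FPKM + 1), for 12224 genes averaging 1 FPKM or more, fitted to all 9 libraries without a block, with Benjamini-Hochberg adjustment. Tested on simulated data for BPQD against control with 12224 genes, the fit recovered 94% of genes changed by 1 and 67% of those changed by 0.5 on the log2 scale. Peaks were counted at the deposited p under 0.05 and overlaps at 1 base, with Python 3.11.15 and pandas 2.3.3. Peaks were named as the 8 higher and 8 lower of smallest p per table in genes of at least 1 FPKM, up to 10 called in both tables, up to 4 per gene list (12 lists), and all in m6A genes, with exceptions stated. The members, lists and rules were chosen with earlier results of these data known. Alternatives were other thresholds, widths, normalizations, pseudocounts, filters and left-out libraries. Sequence was searched only in RefSeq start windows covered by a peak, and the rest of the peaks' sequence was not analysed here.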

Additional observations from a re-analysis of the deposited data

Results flagged for a closer look

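Of 37 tested genes among 38 named for their exon peaks, those of m6A genes included, 23 differed in RNA between the materials by the direct limma contrast (adjusted p at most 0.0298), a difference that also carries the unequal doses. Over all 12224 tested genes 19.0% were higher and 18.6% lower under BPQD than under TiO2. BPQD was higher than TiO2 in 18 of the 23. The largest was PDE10A (1.16, adjusted p = 1.78e-06, on the log2 scale). RNA processing, nucleolar and nuclear pore genes were RBMX (0.42), RANBP2 (0.37), NCL (0.27), PCID2 (0.26) and DNTTIP2 (0.12). Of m6A genes with an exon peak besides RBMX, YTHDC1 (0.32), VIRMA (0.22), EIF3A (0.21) and IGF2BP3 (0.15) were higher under BPQD. Of m6A genes without one, METTL16 (0.37), IGF2BP1 (0.34), HNRNPA2B1 (0.29), YTHDC2 (0.21), ZCCHC4 (0.21), RBM15B (0.14) and YTHDF1 (0.09) also passed as higher under BPQD, and IGF2BP2 (-0.44, adjusted p = 0.000301) as higher under TiO2. Mitotic, chromatin and transcription genes were CENPF (0.26), SSRP1 (0.24), POLR2A (0.22) and KNL1 (0.10), and the others BTBD2 (0.25), EIF3C (0.15), USP1 (0.09) and TUBB (0.06). TiO2 was higher in 5, PDZD2 (-0.42), H19 (-0.29), PCIF1 (-0.24), CALM2 (-0.22) and MORF4L2 (-0.12). The calls of DNTTIP2, KNL1, EIF3C, CALM2, H19 and TUBB were lost in at least 1 alternative processing.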

How the results depend on the processing

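Counts of exon peaks depended on the threshold. With the FDR of the deposited tables under 0.05, 711 were higher and 410 lower under BPQD and 432 and 242 under TiO2. With p under 0.01 the counts were 722, 417, 460 and 262, and with an absolute log2 fold change of at least 1 they were 366, 98, 134 and 83. With peaks of at most 2000 bases 451 were higher under TiO2, and internal exons held 33.4% of exon peaks under BPQD and 38.1% under TiO2, against 40.8% and 45.8% at any width. The other alternatives left each peak count within 1.5 times, including 3 chosen after seeing the data: exons of the listed gene, exons of genes not named lncRNA, and overlapping peaks counted once. Leaving out each input library in turn gave 337 to 385 genes higher and 350 to 405 lower under BPQD, 160 to 189 and 304 to 375 under TiO2, and 469 to 536 and 306 to 348 between the materials. Same-numbered libraries did not deviate together (correlations from -0.083 to 0.0733), so the numbers were not taken as pairs. With the replicate number as a block, 363 genes were higher and 377 lower under BPQD, 169 and 336 under TiO2, and 497 and 333 between the materials. After quantile normalization HDGF was 0.00 under BPQD and TUBB 0.14 under TiO2. In at least 1 alternative, calls were lost for 6 named genes between the materials (DNTTIP2, KNL1, EIF3C, CALM2, H19 and TUBB), 4 under BPQD (CAND1, HDGF, PHKA1P1 and RPS24) and 3 under TiO2 (HDGF, TUBB and YTHDC1). Without TiO2 replicate 1 AHNAK passed under TiO2 (-0.17). The cause was not tested. The planned motif search over whole peaks and its GGACT alternative were not run, and only start windows were searched. Depth is unknown for all libraries.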
